A study of Oryza sativa Indica Group with 4 samples.

Results

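Expansins, endoglucanases, a xyloglucan endotransglucosylase/hydrolase (XTH) and pectin methylesterase inhibitors were followed in rice seedlings. These families are tied to the loosening of the growing cell wall or to how stiff its pectin becomes, though not every member has a settled activity. The members were all probe sets whose single annotated gene carries a symbol or synonym of these families (EXPA, EXPB, EXLA, EXLB, GLU, XTH, XTR or PMEI followed by a number), and they came to 48 probe sets for 43 genes, of 57381 probe sets and 17905 singly annotated genes on the array. The gene table holds 64 genes with such names: 29 alpha-expansins, 15 beta-expansins, 5 expansin-like genes, 12 endoglucanases, 1 XTH and 2 inhibitors. Of these, 14, 11, 4, 11, 1 and 2 had a probe set of their own, so XTH8 alone stands for the XTH family here.

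The mutant carried a T-DNA insertion and is called OsAPC6. APC6 is the name of a component of the anaphase-promoting complex, which marks proteins for destruction as cells leave mitosis. The line belongs to the Indica rice cultivar Basmati 370 and was set against wild-type plants of that cultivar. Both were grown under conditions labelled as optimal and taken as seedlings 15 days after germination, and each sample gave 8 µg of total RNA for 1 Affymetrix rice array, with 2 mutant and 2 wild-type arrays. The pairs are described as biological replications, and the sources used here state neither the zygosity nor the number of plants behind each sample. The disrupted gene's own transcript was not analysed here.

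A plant cell grows when its wall yields to turgor. Alpha-expansins slide cellulose and xyloglucan apart without cutting them, beta-expansins act on the matrix of grass walls and include the grass pollen allergens, and the expansin-like proteins share the fold with no settled activity. Endoglucanases of the GLU family (glycoside hydrolase family GH9) cut beta-glucan chains and some of them act beside the cellulose synthase complex, XTH enzymes cut and rejoin xyloglucan, and the inhibitors hold back pectin methylesterases, which otherwise expose pectin to calcium cross-links or to breakdown.

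Signals were deposited on a linear scale in arbitrary units, already set to a common level in all 4 arrays. Differences are mutant minus wild type on the scale log2(signal + 16), which understates the change of dim probe sets, and a probe set passed where limma's p-value, adjusted after Benjamini and Hochberg over 38172 probe sets, was under 0.05. Log2 signals correlated at 0.977 between the mutant arrays, at 0.98 between the wild-type arrays and at 0.963 to 0.964 between genotypes. An exact permutation test of 2 against 2 arrays cannot give a two-sided p under 0.333, so every call rests on limma's sharing of variance between probe sets of like signal. The ratio of 3′ to 5′ signal moved with genotype in 2 of 4 control genes. For GAPDH, the signal at the 3′ end over that at the 5′ end was 18.4 and 16.2 in the mutant arrays, against 9.72 and 9.84 in the wild-type arrays, and for ubiquitin 1.32 and 1.27 in the mutant arrays, against 1.04 and 1.03 in the wild-type arrays. For actin it was 12.2 and 16.6 in the mutant arrays, against 16.1 and 8.79 in the wild-type arrays, and for cyclophilin 2.92 and 2.38 in the mutant arrays, against 2.27 and 2.86 in the wild-type arrays, with overlap in both. The 22 rice housekeeping control probe sets differed by between -0.77 and 0.54. Among them, a second group of control probe sets did not repeat the GAPDH shift. Its GAPDH probe sets differed by -0.32 at the 3′ end and -0.01 at the 5′ end. Its ef1a probe sets differed by -0.45 at the 3′ end and 0.54 at the 5′ end. For actin it gave 0.10 and 0.01 at the 3′ end and 0.07 at the 5′ end. The part of RNA quality in the results was not tested.

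Of the 48 member probe sets, 37 passed the filter on dim signals and 11 did not. Among the 37, 2 rose and 6 fell in the mutant, and 29 did not pass the test. Across the array 19.0% of tested probe sets were called, 8.78% as rises and 10.2% as falls, against 5.41% and 16.2% of the tested members. Among probe sets with a single annotated gene, as the members are, 25.1% were called, so the members' total of 21.6% lay near the background. With 1 probe set per gene, 2 genes rose and 5 fell of 34 tested, against 12.8% and 13.4% of all annotated genes (26.2% together). The median log2 difference was -0.07 over the members and -0.01 over all tested probe sets.

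**Figure D1:**
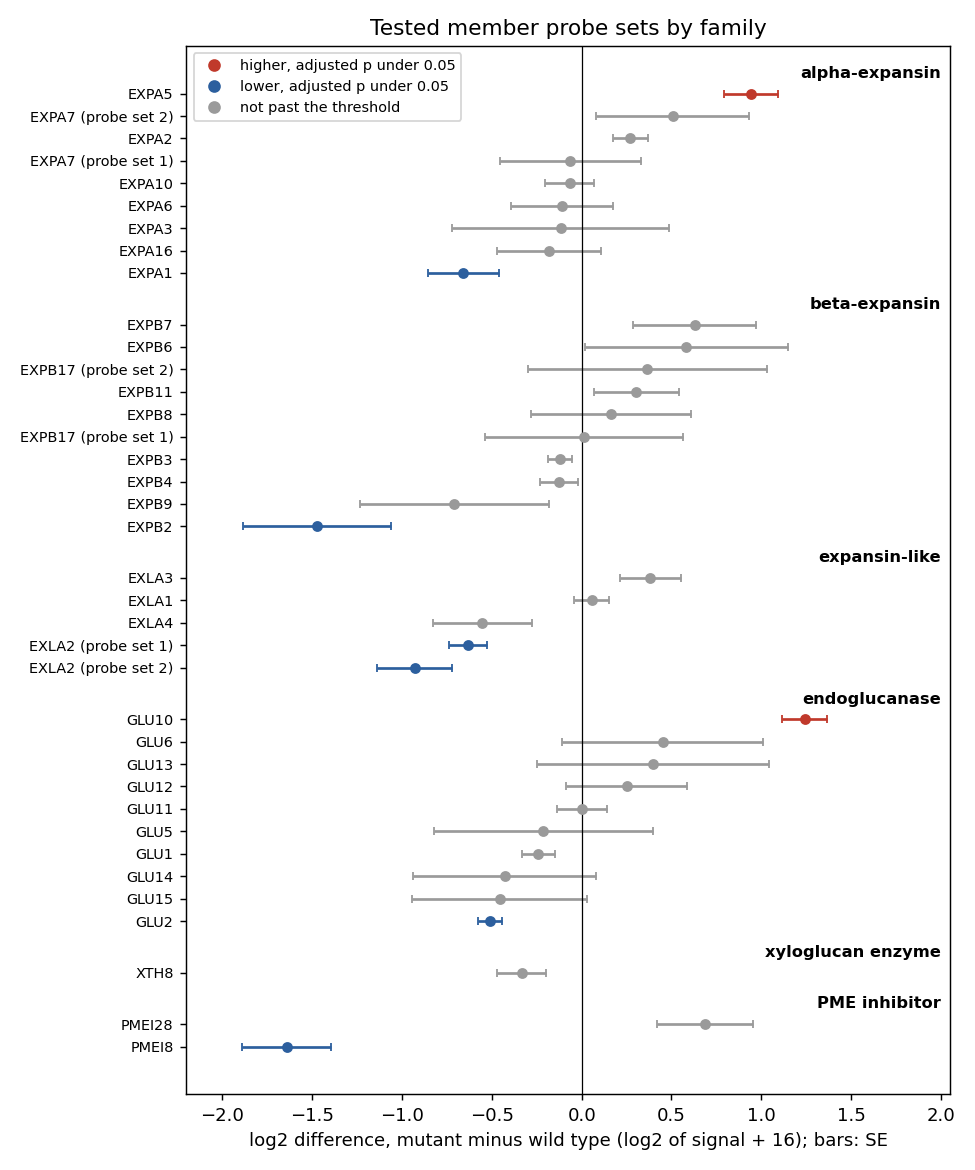
Log2 difference between mutant and wild type (x axis, log2 of signal + 16) of the 37 tested member probe sets, grouped by family, with bars for the standard error; red and blue points passed the test as higher and lower in the mutant, grey ones did not. GLU10 at 1.24 and EXPA5 at 0.94 are the rises, PMEI8 at -1.64 and EXPB2 at -1.47 the falls past -1, and most grey points with wide bars are dim probe sets.

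Calls in both directions occurred in alpha-expansins and endoglucanases, and the other families with a call held falls. Alpha-expansins held 1 rise and 1 fall among 9 tested probe sets, beta-expansins 1 fall among 10, expansin-like genes 2 falls among 5, both from EXLA2, and endoglucanases 1 rise and 1 fall among 10. Of the inhibitors 1 fell and 1 did not pass, and XTH8 did not pass. Of the 37 log2 differences, 21 were below 0 and 16 above.

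The strongest rise was that of the endoglucanase gene GLU10 (LOC4330667). Its signal was 731.7 and 688.4 in the mutant arrays, against 274.5 and 308.5 in the wild-type arrays. Both mutant values lay above both wild-type values, and every pair of a mutant and a wild-type array differed by at least 2-fold in signal + 16, which held for 2.54% of all tested probe sets in this direction. The mean signal was 2.44 times as high in the mutant, and the log2 difference was 1.24 (SE 0.13, limma adjusted p = 0.000104).

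GLU2 (LOC4334029), of the same family, went the other way. It read 2657.6 and 2694.4 in the mutant arrays and 3790.1 and 3846.2 in the wild-type arrays, so that arrays of a genotype stood close together and the genotypes apart. It fell by 0.51 on the log2 scale (SE 0.07, limma adjusted p = 0.000577), to a mean signal 0.701 times that of the wild type.

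GLU1, listed also as OsCel9D, encodes a membrane-anchored endoglucanase needed for internode elongation and normal cellulose content in rice. It had signals of 2113.9 and 2220.0 in the mutant arrays, against 2788.4 and 2357.1 in the wild-type arrays. The groups did not overlap, but the difference of -0.24 (95% interval -0.44 to -0.04) did not pass (limma adjusted p = 0.0967). Without the second wild-type array, the lower of the wild-type readings, the difference was -0.36 and passed (limma adjusted p = 0.0428).

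The remaining endoglucanase probe sets that were tested gave no call. GLU11 read 338.6 and 386.5 in the mutant arrays, against 355.7 and 368.3 in the wild-type arrays, a difference of 0.00 with a 95% interval from -0.31 to 0.31. GLU12, GLU6 and GLU13 had differences of 0.25, 0.45 and 0.40, and GLU5, GLU14 and GLU15 of -0.21, -0.43 and -0.46. The SEs of these 6 lay between 0.34 and 0.65. The mutant readings of GLU13 were as far apart as 45.0 and 4.7, and those of GLU15 as 44.3 and 12.8, and the 95% interval of GLU13 ran from -1.05 to 1.84.

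Among alpha-expansins, the wall-loosening proteins first known from elongating tissue, EXPA5 (LOC4330706) rose. Its signals were 468.3 and 439.9 in the mutant arrays, against 247.3 and 211.6 in the wild-type arrays. The groups were separated by more than the spread within either, with a mean 1.98 times as high in the mutant, or 0.94 on the log2 scale (SE 0.15, limma adjusted p = 0.00173).

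EXPA1 (LOC4335222) fell. It read 185.6 and 185.5 in the mutant arrays and 251.2 and 362.8 in the wild-type arrays (SD 78.9), so that the spread lay in the wild type. The log2 difference was -0.66 (SE 0.20, limma adjusted p = 0.0443), and without the second wild-type array it was -0.41 and did not pass (limma adjusted p = 0.348). Nor did it pass without either mutant array (limma adjusted p = 0.0818 and 0.0817), on a common 75th percentile (limma adjusted p = 0.0529) or without the filter on dim probe sets (limma adjusted p = 0.111).

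EXPA2 and EXPA10 showed smaller differences. EXPA2 had signals of 908.6 and 854.1 in the mutant arrays, against 747.9 and 706.6 in the wild-type arrays, a difference of 0.27 (95% interval 0.05 to 0.49) that did not pass (limma adjusted p = 0.0866). EXPA10 had signals of 951.6 and 789.3 in the mutant arrays, against 1030.3 and 799.6 in the wild-type arrays. These groups overlapped, and the difference was -0.07 (95% interval -0.37 to 0.24).

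EXPA6, EXPA16 and EXPA3 overlapped between genotypes as well, with differences of -0.11, -0.18 and -0.12. EXPA7 was read by 3 probe sets. In the brightest of them the signals were 47.1 and 41.0 in the mutant arrays against 60.1 and 35.6 in the wild-type arrays, a difference of -0.06, while another read 51.8 and 36.4 in the mutant and 29.3 and 22.9 in the wild type, a difference of 0.51 (limma adjusted p = 0.487). The third did not pass the filter, so the probe sets of EXPA7 disagreed in sign and no call was made from any of them.

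Beta-expansins differ from alpha-expansins in sequence and in the polymers they act on, and grasses have many of them. EXPB2 (LOC4349348) was the member of this family that passed. Its signal was 28.8 and 13.0 in the mutant arrays, against 70.2 and 99.8 in the wild-type arrays. The groups did not overlap, although all 4 readings were under 100, where single arrays vary widely. The log2 difference was -1.47 (SE 0.41, limma adjusted p = 0.032), with a 95% interval from -2.39 to -0.55. The call was lost without the second mutant array (-1.16, limma adjusted p = 0.0891), without the first wild-type array (-1.68, limma adjusted p = 0.0768), without the second (-1.26, limma adjusted p = 0.231) and without the filter (limma adjusted p = 0.139).

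EXPB6, EXPB2, EXPB3 and EXPB4 follow each other without another gene between them in the gene order of a Japonica assembly. EXPB3 read 4894.0 and 4658.9 in the mutant arrays, against 5190.1 and 5201.5 in the wild-type arrays, a difference of -0.12 (95% interval -0.27 to 0.02, limma adjusted p = 0.252). EXPB4 read 690.8 and 618.7 in the mutant arrays, against 721.7 and 707.9 in the wild-type arrays, a difference of -0.13 (95% interval -0.36 to 0.11, limma adjusted p = 0.491). In both, mutant arrays lay below wild-type arrays by less than the test resolved. EXPB6 read 29.9 and 18.3 in the mutant arrays and 3.6 and 19.8 in the wild-type arrays, overlapping groups with a difference of 0.58 (95% interval -0.68 to 1.84). The intervals of EXPB3 and EXPB4 lie above that of EXPB2, whereas the interval of EXPB6 overlaps it. No test of the difference between neighbours was made, and the name of the EXPB4 probe set marks it as able to match several transcripts.

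**Figure D2:**
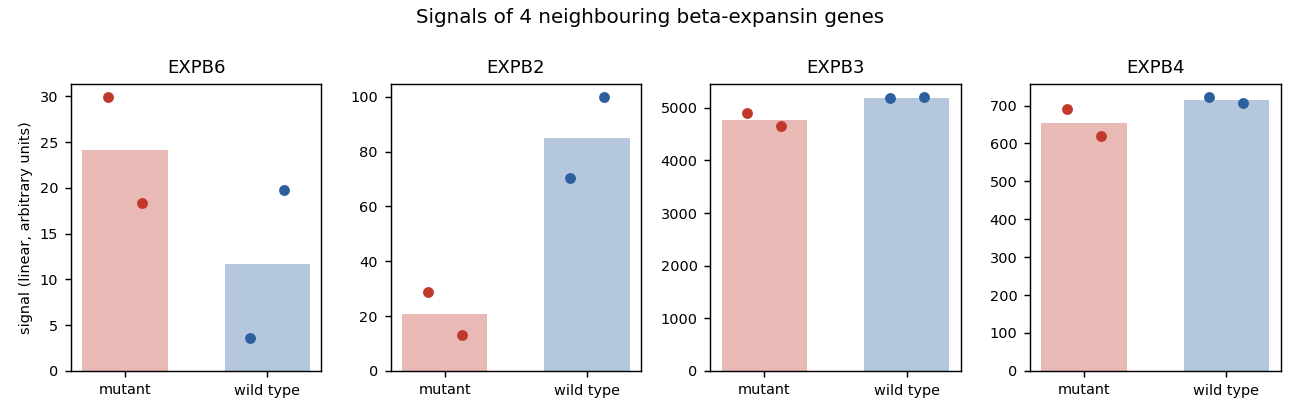
Signals (y axis, linear, arbitrary units, a separate scale in each panel) of the 4 neighbouring beta-expansin genes, with a point per array and a bar for the mean of 2 mutant and 2 wild-type arrays. EXPB2 has mutant values of 28.8 and 13.0 under wild-type values of 70.2 and 99.8, EXPB3 and EXPB4 differ by -0.12 and -0.13 on the log2 scale, and EXPB6 overlaps between genotypes.

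EXPB7 and EXPB11 had both mutant arrays above both wild-type arrays without passing. EXPB7 read 80.4 and 84.1 in the mutant arrays, against 59.8 and 37.3 in the wild-type arrays, a difference of 0.63 (limma adjusted p = 0.255). EXPB11 read 166.0 and 132.7 in the mutant arrays, against 127.3 and 107.8 in the wild-type arrays, a difference of 0.30 (limma adjusted p = 0.446). EXPB9 was dim in all arrays, at 9.4 and 9.0 in the mutant and 29.1 and 21.6 in the wild type, and did not pass (-0.71, limma adjusted p = 0.424). EXPB8 differed by 0.16, and the 2 probe sets of EXPB17 by 0.01 and 0.36 with overlapping groups.

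Expansin-like genes divided by member. EXLA2 (LOC4349265) fell in both of its probe sets. In the first, the signals were 477.0 and 496.4 in the mutant arrays, against 759.2 and 767.7 in the wild-type arrays. The genotypes differed by -0.63 on the log2 scale (SE 0.11, limma adjusted p = 0.00236). The second, whose name marks it as open to cross-hybridisation, read 559.8 and 316.7 in the mutant arrays and 812.2 and 823.4 in the wild-type arrays, which differ by -0.93 (SE 0.21, limma adjusted p = 0.0109). Both have the same direction, and the wide gap between the mutant arrays appeared in the second, which differed by -1.33 without the first mutant array and by -0.53 without the second, and passed in both. These 2 calls are readings of 1 gene and not separate findings.

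EXLA1 read 4095.6 and 4483.5 in the mutant arrays, against 3718.5 and 4563.8 in the wild-type arrays. The groups overlapped, with a difference of 0.06 (95% interval -0.16 to 0.27). EXLA3 read 300.0 and 258.6 in the mutant arrays and 217.2 and 203.4 in the wild-type arrays, and EXLA4 read 77.8 and 65.3 in the mutant arrays and 107.5 and 116.8 in the wild-type arrays. They lay apart in opposite directions, at 0.38 and -0.55, and neither passed (limma adjusted p = 0.16 and 0.213).

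XTH8, described in rice as a gene that gibberellin raises, had signals of 599.7 and 509.9 in the mutant arrays, against 629.0 and 781.3 in the wild-type arrays. The groups did not overlap, and the difference of -0.33 (95% interval -0.63 to -0.03) did not pass (limma adjusted p = 0.122) in the setting used here or in any of 13 other settings.

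Of the pectin methylesterase inhibitors, PMEI8 (LOC4329573) fell. It read 51.8 and 60.8 in the mutant arrays, against 202.0 and 216.5 in the wild-type arrays. All 4 pairs of arrays differed by at least 2-fold downward in signal + 16, as did 0.802% of all tested probe sets (3.35% in either direction), and the mean signal of the mutant was 0.269 times that of the wild type. The log2 difference was -1.64 (SE 0.25, limma adjusted p = 0.00127), the furthest from 0 among the members. PMEI28 read 130.6 and 122.2 in the mutant arrays, against 65.6 and 80 in the wild-type arrays. Both mutant arrays lay above both wild-type arrays, but the difference of 0.69 (SE 0.27, 95% interval 0.09 to 1.28) did not pass (limma adjusted p = 0.11).

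**Figure D3:**
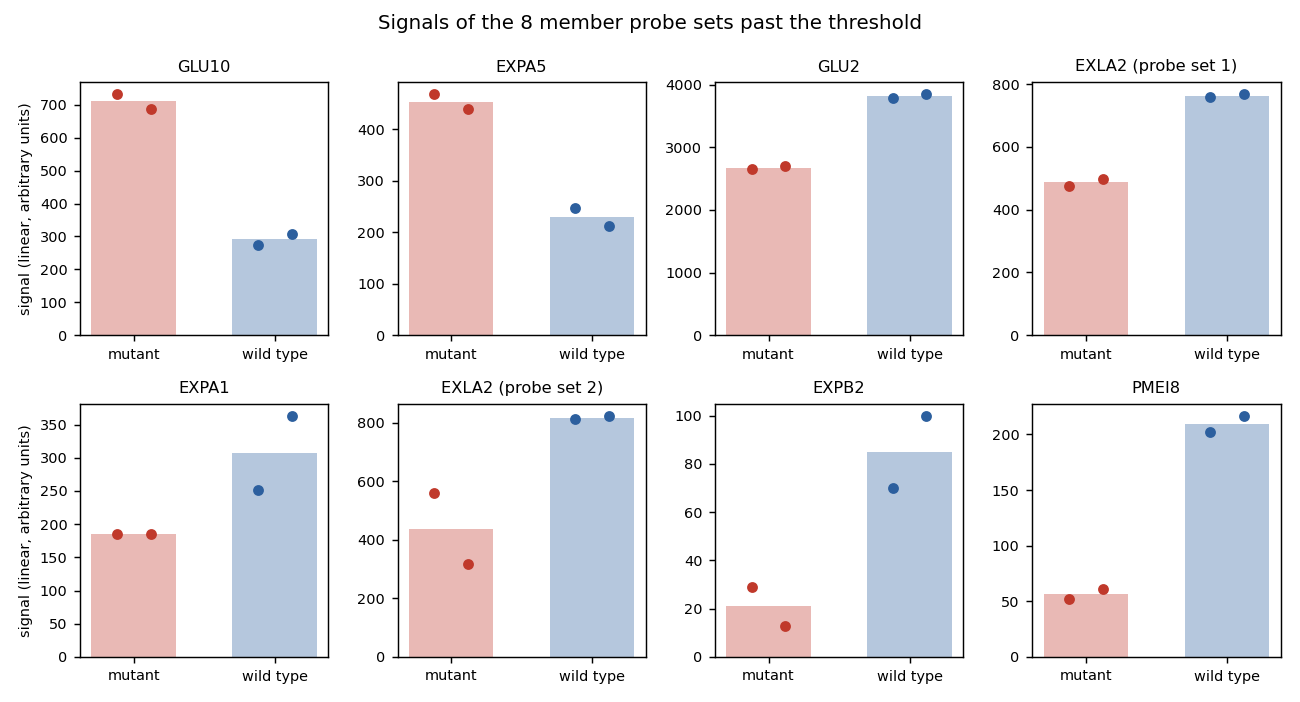
Signals (y axis, linear, arbitrary units, a separate scale in each panel) of the 8 member probe sets past the threshold, with a point per array and a bar for the mean of 2 mutant and 2 wild-type arrays. GLU10 and EXPA5 are higher in the mutant and the other 6 lower, and the points of EXPA1, EXPB2 and the second EXLA2 probe set spread most within a genotype.

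In these whole seedlings, fewer cells of a type and less RNA per cell cannot be told apart. For the marker counts here, 19.0% of all tested probe sets were called, and 31.9% of those with a mean signal of at least 100. Of 6 genes listed as root markers, LSI1 and LSI6, which encode silicon transporters, fell by 0.74 and 0.81 (limma adjusted p = 0.000798 and 8.69e-05). Whether LSI6 reads root tissue alone in these seedlings was not tested. The name of its probe set, like that of PORB among the green tissue genes, marks it as open to cross-hybridisation. NAS2, for a nicotianamine synthase, read 76.4 and 70.4 in the mutant arrays, against 40.1 and 24.1 in the wild-type arrays, and did not pass (0.91, limma adjusted p = 0.127). Of the list 4 genes were tested, and its summed signal, nearly all of it from LSI6 and LSI1, was 3517 and 3343 in the mutant arrays, against 5831 and 5814 in the wild-type arrays; LSI2 was at or below 2.1 in all arrays. Of 8 green tissue genes 1 rose and 3 fell. PORA rose by 0.47 (limma adjusted p = 0.00452), and GLK1, CHLH and PORB fell by 0.63, 0.48 and 0.34 (limma adjusted p = 0.000245, 0.000971 and 0.0095). The summed signal of the 8, the largest part of it from CAB2R, was 80055 and 73389 in the mutant arrays and 75131 and 77731 in the wild-type arrays. Of 3 pollen and flower genes MADS58 rose by 0.60 (limma adjusted p = 0.0126), TDR overlapped between genotypes (-0.34, limma adjusted p = 0.781), and MADS3 was too dim to be tested. The light-harvesting gene CAB2R read 53054.5 and 46568.1 in the mutant arrays and 42637.4 and 43507.9 in the wild-type arrays, and did not pass (0.21, limma adjusted p = 0.08). The probe set of RBCS1, for a Rubisco small subunit, stayed at or below 29.2 and added little to the summed signal. Whether it reads the Rubisco transcripts of leaves was not tested. The part of these tissue markers in the falls of wall genes was not tested.

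Calls were more frequent among bright members. Of the 17 members with a mean signal of at least 100 over the 4 arrays, 2 rose and 5 fell, where 31.9% of all such probe sets were called. Of the 20 with a lower mean, EXPB2 alone was called, where 2.33% of all such probe sets were. The SE of the brighter members ran from 0.07 to 0.25, and that of the dimmer ones from 0.27 to 0.66. Over all 37, the median absolute difference between genotypes was 0.38, against 0.20 between the mutant arrays and 0.23 between the wild-type arrays. Over all tested probe sets on the array the same medians were 0.30, 0.20 and 0.18. The first of each compares means of 2 arrays and the others compare single arrays. In 9 members both mutant arrays lay above both wild-type arrays and in 13 below them, where 26.9% and 29.8% of all tested probe sets did (56.7% together), and 15 overlapped.

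The 11 probe sets left out by the filter belonged to 11 genes, of which EXPA7 and GLU12 had another probe set that was tested. The other 9 were EXPA4, EXPA8, EXPA26, EXPA29, EXPA31, EXPA32, EXPB10, EXPB18 and GLU8. No signal among the 11 exceeded 29.1 in any array, and they were not tested in the setting used here. With the filter lifted, the 5 members that passed were all among the 8 called with it, so none of the 11 passed. At the edge of the filter, GLU5 passed with 6.0 and 20.4 in the mutant arrays and 6.8 and 31.2 in the wild-type arrays, and EXPA29 did not with 5.1 and 6.1 in the mutant arrays and 5.6 and 29.1 in the wild-type arrays. EXPA26, at 6.9 and 9.4 in the mutant arrays and 1.9 and 2.0 in the wild-type arrays, and EXPA8, at 0.9 and 2.9 in the mutant arrays and 3.9 and 4.3 in the wild-type arrays, were separated at levels near the floor.

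Other wall genes gave a frame for these counts. The shares across the array, here as above, were 8.78% rises and 10.2% falls of all tested probe sets. Among probe sets with a mean signal of at least 100, 31.9% were called. Cellulose synthases, which spin the cellulose that expansins act on, had 12 tested probe sets for 9 genes. Of these probe sets 8 fell and none rose, with a median difference of -0.49 and all 12 values below 0. CESA3 had the largest called fall, 0.96 in a dimmer probe set (SE 0.19, limma adjusted p = 0.00622) and 0.35 in its brightest (limma adjusted p = 0.00453). Of 32 probe sets of hemicellulose synthesis, 1 rose and 3 fell, with a median of 0.03. CSLF6, which makes the mixed-linkage glucan of grass walls, fell by 0.53 in its brightest probe set (limma adjusted p = 0.00317). Its dim probe sets differed by 0.73 and 0.13 and did not pass (limma adjusted p = 0.452 and 0.916). CSLE1 rose by 0.24 (limma adjusted p = 0.0299), a call lost without the first mutant array or either wild-type array. Of 10 probe sets of laccases and an arabinogalactan protein 3 rose and 1 fell, LAC19 rising by 3.47 (limma adjusted p = 7.51e-06) and LAC10 falling by 1.05 (limma adjusted p = 0.00866), a call lost without the second wild-type array (limma adjusted p = 0.0742). No probe set matched the name patterns for pectin-modifying enzymes. Whether these lists differ from the members was not tested.

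**Figure D4:**
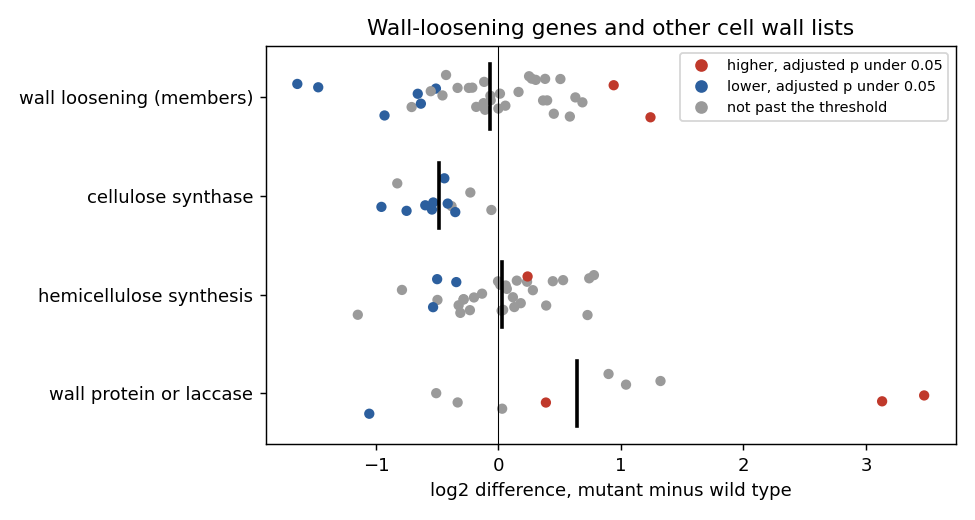
Log2 difference between mutant and wild type (x axis) of every tested probe set of the members (labelled wall loosening) and of 3 other cell wall lists, with a vertical bar at each list's median and colours for the call. The cellulose synthase values all lie below 0 with a median of -0.49, while the members spread on both sides of a median of -0.07.

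Under 13 other settings GLU10, EXPA5, GLU2, PMEI8 and the first EXLA2 probe set passed in 12, the exception being limma without an intensity trend, where nothing on the array was called. The second EXLA2 probe set passed in 10 of 12. EXPB2 passed in 8 and EXPA1 in 7 of 13. No called member changed sign in any of them.

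**Figure D5:**
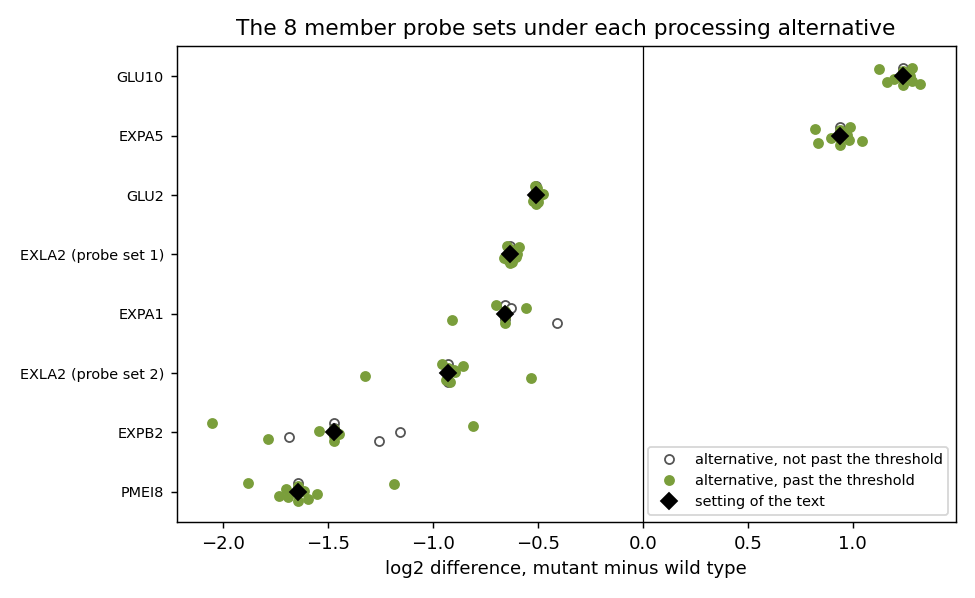
Log2 difference between mutant and wild type (x axis) of the 8 member probe sets past the threshold, under the setting of the text (diamond) and under each of the other settings (circles, filled where the adjusted p stayed under 0.05). The values of GLU10 run from 1.12 to 1.32 and those of GLU2 from -0.52 to -0.48, while those of EXPB2 run from -2.05 to -0.81.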

How the data were processed

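The authors deposited 1 linear intensity per probe set and array. GCOS 1.2 is named in the submitters' processing notes, without the algorithm behind the signal. Trimmed means (2% at each end) were 500.1 in all 4 arrays. The 123 control probe sets and then the dimmest 19086 of the others by mean log2(signal + 16) were left out, leaving 38172. No further scaling was applied. With R 4.3.3, limma 3.58.1 (lmFit, then eBayes with the prior variance following intensity) compared 2 mutant with 2 wild-type arrays, and the step was tested on simulated data. The 22436 probe sets with 1 gene were named through the RefSeq gene table of assembly ASM3414082v1, all of which matched; 95 had several genes and 34850 none listed. The brightest probe set stood for a gene.

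Members and lists were chosen with earlier results of these data known. Named were called members, members past 1 on the log2 scale, the 2 brightest of each family and the largest called rise and fall of each other wall list; other members were named after their values were seen. Alternatives were other constants, filters, normalizations, variance prior, replicate block and arrays left out. The number of arrays limits the precision, and p-values rest only on the spread between these samples, shared between probe sets of like signal.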

Additional observations from a re-analysis of the deposited data

How the results depend on the processing

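Without the intensity trend limma called 0 of 37 members, 0 of 34 genes and 0 of 54 other wall probe sets, with 11, 10 and 19 below 0.05 before adjustment. There were 0 rises and 0 falls, and the cause was not tested. Without the filter on dim probe sets, which adds dim probe sets to the test, 5 members, 3 of them falls, and 4 genes passed. A rule chosen after seeing the data, a fold of at least 2 in signal + 16 in all 4 pairs, took 2 members, GLU10 and PMEI8, where 3.35% of all tested probe sets met it. Leaving out each array in turn gave 6 to 7 members, 2 to 2 rises, 4 to 5 falls, 5 to 6 genes and 12 to 16 other wall probe sets, under the assumption that the lone array varies like the other group. With the replicate block 8 members passed, all of the 8 called without it, and 16 other wall probe sets did; CSLE1 no longer passed (limma adjusted p = 0.0521). Same-numbered arrays showed no shared deviation taken over all tested probe sets (r = 0.00 over 38172 probe sets). This single correlation cannot show whether the numbers pair the arrays for some of the genes. With 1 or 64 added, quantile normalization or a stricter filter the 8 calls were kept, and 7 of them were on a common 75th percentile, where the share of rises among all calls on the array was 52.5%, against 46.3% in the setting of the text. Dim signal limits what could be seen in 20 of the 37 members.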
